A study of Mus musculus with 120 samples.

Results

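The EGF family genes described here are the ligand genes Hbegf, Areg, Ereg, Btc and Tgfa, the receptor genes Egfr, Erbb2 and Erbb3, and Errfi1, which encodes an intracellular inhibitor of the receptors. They are 9 of the 48371 gene symbols in an FPKM table of single cells from the mouse endolymphatic sac at E14.5. The libraries were made by Smart-seq2, which reads transcripts of individual cells over their whole length. FPKM counts fragments relative to the length of the transcript and to all fragments of that cell. The cells came from embryos heterozygous for Sox9Y440X, an allele named for a stop codon in the transcription factor SOX9 (Sox9Y440X/+, 62 cells), and from wild-type embryos (58 cells). The labels name no animal, litter, strain, sex or plate and no cell sort, and do not say where the allele acts. The genes were chosen by their measured values, since Hbegf and Errfi1 were known to be among the genes with the largest differences in mean log2(FPKM + 1) between the genotypes in these cells, and their differences are therefore given as descriptions. With cells of unknown animals each genotype is 1 sample, no test was possible, and differences between animals are unknown.

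EGF family ligands are made as membrane-anchored precursors that metalloproteases release from the cell surface. The ligands bind receptors of the ERBB family, which pair with each other and start the RAS-ERK cascade. EGFR binds all 5 ligands listed here, ERBB2 has no known ligand and serves as a partner, and ERBB3 binds neuregulins and has little kinase activity of its own. ERRFI1, also called MIG6, is made in response to EGFR activity and blocks the receptor's kinase domain, which makes it a negative feedback gene. The endolymphatic sac is a blind pouch of the inner ear whose epithelium, known for regulating the fluid of the inner ear, is wrapped in connective tissue.

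Cells labelled with under 1000 expressed genes were set aside, 4 of them Sox9Y440X/+ and 1 wild-type, and 115 cells remained. All 9 genes were listed at 0 in the 5 cells set aside. Clusters of the remaining cells were joined into 2 classes by their marker genes. Mesenchyme-like cells, the connective tissue class, comprised 21 Sox9Y440X/+ cells and 1 wild-type cell. Epithelium-like cells comprised 37 Sox9Y440X/+ and 56 wild-type cells. The marker counts that follow describe the classes and do not test them, since the same markers named the clusters. A median of 7 of 15 mesenchyme markers reached an FPKM of 1 in Sox9Y440X/+ mesenchyme-like cells, against 1 in Sox9Y440X/+ and 0 in wild-type epithelium-like cells. For the 14 epithelium markers the medians were 0 in Sox9Y440X/+ mesenchyme-like cells, 12 in Sox9Y440X/+ epithelium-like cells and 10 in wild-type epithelium-like cells. Of the 21 Sox9Y440X/+ mesenchyme-like cells, 2 stood apart by their markers and were kept in the class values given below. The cell with 10 of 11 endothelium markers and 0 mesenchyme markers, which go against the name of the class, had all 9 EGF family genes listed at 0. A cell with 4 of 7 pericyte markers and 2 mesenchyme markers had only Hbegf, at 2.36 FPKM.

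The genotypes also differed in the number of genes seen per cell and in Xist. The labels give a median of 4506 genes per cell (range 1959 to 6323) in Sox9Y440X/+ and 3241.5 (range 1209 to 6331) in wild-type epithelium-like cells, and 3593 (range 1406 to 6459) in Sox9Y440X/+ mesenchyme-like cells. Xist, the transcript of the inactive X chromosome of female cells, reached an FPKM of 1 in 0 of 37 Sox9Y440X/+ and 34 of 56 wild-type epithelium-like cells. Sox9 itself averaged 16.6 FPKM in Sox9Y440X/+ and 4.11 FPKM in wild-type epithelium-like cells, a gene-level value that does not separate the alleles. Summed FPKM per cell had a median of 495100 and a highest value of 540500 in Sox9Y440X/+ epithelium-like cells. In wild-type epithelium-like cells these were 449000 and 4445000, so FPKM is not strictly on 1 scale across cells. With each cell scaled to the same summed FPKM, the differences in mean log2(FPKM + 1) between genotypes were 2.48 for Hbegf, 2.55 for Errfi1 and 1.23 for Erbb2. The read depth of a cell is unknown from FPKM, and an exact 0 can be a failed estimate, since 2 of the 115 cells had the housekeeping gene Gapdh at 0 and 5 had Eef2 at 0. Detection here means an FPKM of 1 or more. Of the 1080 values of the 9 genes over all 120 cells, 248 reached this limit and 22 lay between 0 and 1.

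Among the ligands, Hbegf, the gene of heparin-binding EGF-like growth factor, stood out. In Sox9Y440X/+ epithelium-like cells it ranged from 0 to 332.5 FPKM with a median of 20.2 and a mean of 56.9, while in wild-type epithelium-like cells it ranged from 0 to 233.7 FPKM with a median of 0 and a mean of 13.01. It was detected in 23 of 37 Sox9Y440X/+ cells (62.2%, exact Clopper-Pearson 95% interval 44.8 to 77.5) and in 12 of 56 wild-type cells (21.4%, interval 11.6 to 34.4). These intervals, here and below, cover counting error only. The groups overlapped over nearly their whole range, and the difference lay mainly in how many cells had the gene. Where Hbegf was detected, its median was 70.05 FPKM in Sox9Y440X/+ and 40.7 FPKM in wild-type cells. The highest cell held 15.8% of the summed Hbegf of the Sox9Y440X/+ cells, and the highest wild-type cell 32.1% of that of its group.

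Each of the other ligands was detected in fewer Sox9Y440X/+ epithelium-like cells than Hbegf. Tgfa, the gene of transforming growth factor alpha, averaged 26.4 FPKM in Sox9Y440X/+ and 19.9 FPKM in wild-type cells, was detected in 15 of 37 and in 19 of 56 of them, and reached 347.3 FPKM in a Sox9Y440X/+ cell and 414.7 FPKM in a wild-type cell. Without that wild-type cell, left out after the values were seen, Tgfa averaged 12.7 FPKM and Hbegf 13.2 FPKM in the other 55 wild-type cells, so which ligand had the higher wild-type mean rests on 1 cell. The 3 other ligand genes, Areg (amphiregulin), Ereg (epiregulin) and Btc (betacellulin), lie within 328.4 kb of each other on chromosome 5 and were each seen in few cells. Areg was detected in 6 of 37 Sox9Y440X/+ cells (16.2%, interval 6.19 to 32.01) and in 4 of 56 wild-type cells (7.14%, interval 1.98 to 17.3), with means of 13.2 and 2.54 FPKM. Btc was detected in 8 of 37 Sox9Y440X/+ cells (21.6%, interval 9.83 to 38.2) and in 2 of 56 wild-type cells (3.57%, interval 0.435 to 12.3), with means of 3.70 and 0.718 FPKM. As log2 ratios of mean FPKM these were 2.38 for Areg and 2.37 for Btc, beside 2.13 for Hbegf, and without the highest wild-type cell of each gene the wild-type means were 1.67 FPKM for Areg and 0.171 FPKM for Btc. The Areg intervals overlap widely and the Btc intervals overlap only between 9.83% and 12.3%. Ereg was found in 1 Sox9Y440X/+ cell, at 19.7 FPKM, and in 0 of 56 wild-type cells. The plot of the 9 genes in each cell shows the mass of cells at 0 behind all of these means.

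**Figure D1:**
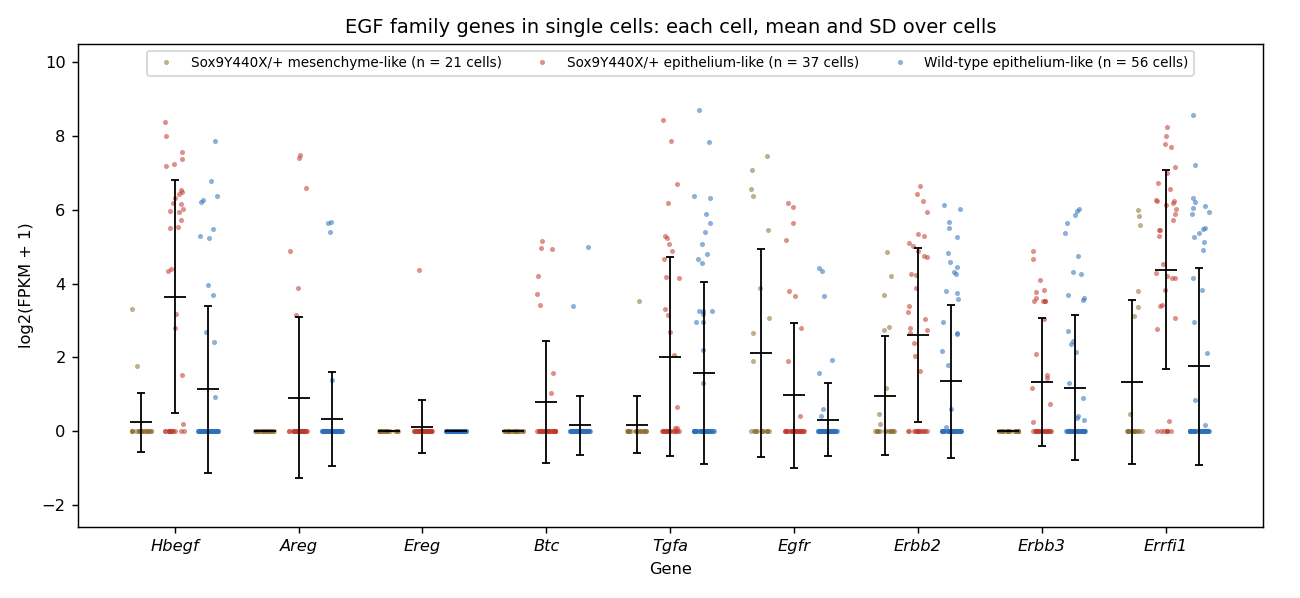
The level of each of the 9 genes as log2(FPKM + 1) (vertical axis) by gene (horizontal axis), with a point for each of 21 Sox9Y440X/+ mesenchyme-like, 37 Sox9Y440X/+ epithelium-like and 56 wild-type epithelium-like cells, a horizontal bar for the mean and a vertical bar for the SD over cells. Hbegf and Errfi1 have their highest means in Sox9Y440X/+ epithelium-like cells (3.65 and 4.38), Egfr in mesenchyme-like cells (2.12), and Areg, Ereg, Btc and Erbb3 sit at 0 in every mesenchyme-like cell.

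Of the receptors, Erbb2 was the one found in most epithelium-like cells. It averaged 17.3 FPKM in Sox9Y440X/+ and 7.77 FPKM in wild-type cells and was detected in 23 of 37 (62.2%, interval 44.8 to 77.5) and in 18 of 56 (32.1%, interval 20.3 to 45.96) of them. Its level where detected was alike, with a median of 18.1 FPKM in Sox9Y440X/+ and 18.7 FPKM in wild-type cells. Erbb3 was detected in 15 of 37 Sox9Y440X/+ cells (40.5%, interval 24.8 to 57.9) and in 16 of 56 wild-type cells (28.6%, interval 17.3 to 42.2). Its mean went the other way, at 4.44 FPKM in Sox9Y440X/+ and 6.95 FPKM in wild-type cells, and its highest values were 28.6 FPKM in Sox9Y440X/+ and 63.6 FPKM in wild-type cells. Egfr, the receptor of all 5 ligands, was seldom seen in the epithelium. It was detected in 8 of 37 Sox9Y440X/+ cells (21.6%, interval 9.83 to 38.2) and in 5 of 56 wild-type cells (8.93%, interval 2.96 to 19.6), with means of 6.93 and 1.02 FPKM and highest values of 71.1 and 20.5 FPKM. The 8 and 5 cells leave the Egfr values of either genotype resting on few cells.

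Errfi1 was the most widely detected of the 9 genes in Sox9Y440X/+ epithelium-like cells. It ranged from 0 to 302.6 FPKM with a median of 38.2 and a mean of 60.8 in Sox9Y440X/+ cells, and from 0 to 382.3 FPKM with a median of 0 and a mean of 21.5 in wild-type cells. It was detected in 29 of 37 Sox9Y440X/+ cells (78.4%, interval 61.8 to 90.2) and in 18 of 56 wild-type cells (32.1%, interval 20.3 to 45.96). As with Hbegf, the share of cells differed more than the level in the cells that had it, where the median was 58.5 FPKM in Sox9Y440X/+ and 44.1 FPKM in wild-type cells. The highest Errfi1 value of all was in a wild-type cell that held 31.8% of the summed Errfi1 of its group. That cell had 1209 genes, the fewest of its group, and every other of the 9 genes at 0.

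The Errfi1 gene lies on chromosome 4 at 150853919 to 150868892 on the plus strand of GRCm38 (GENCODE M21), and Areg on chromosome 5 at 91139599 to 91148432 on the plus strand. RefSeq start-site regions on GRCm38.p6 were found for 6 of the 9 genes, in 7 windows of the 250 bases upstream of a start. They were searched on both strands for TGACGTCA, the cyclic AMP response element bound by CREB and ATF proteins, for TATAAA, the TATA box, for TGANTCA, the AP-1 element of FOS and JUN proteins, for the CArG box of serum response factor, for ACAANG, a core of SOX protein sites, and for GGAATG, the TEAD element. The windows of Errfi1 and Areg are shown because they alone among the 7 held TGACGTCA, and both held TATAAA downstream of it. In each line the capitals mark these 2 motifs. The Errfi1 window, chr4:150854820-150855069 on the plus strand, ends at the later of 2 RefSeq starts, within the GENCODE span of the gene. The Areg window, chr5:91139349-91139598 on the plus strand, ends at the base before the gene's annotated start.
Errfi1: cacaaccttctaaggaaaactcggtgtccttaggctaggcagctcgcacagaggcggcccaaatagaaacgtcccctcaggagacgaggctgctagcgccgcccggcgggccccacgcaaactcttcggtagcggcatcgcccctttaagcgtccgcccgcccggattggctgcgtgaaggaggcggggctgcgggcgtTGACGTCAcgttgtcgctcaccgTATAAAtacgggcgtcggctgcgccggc
Areg: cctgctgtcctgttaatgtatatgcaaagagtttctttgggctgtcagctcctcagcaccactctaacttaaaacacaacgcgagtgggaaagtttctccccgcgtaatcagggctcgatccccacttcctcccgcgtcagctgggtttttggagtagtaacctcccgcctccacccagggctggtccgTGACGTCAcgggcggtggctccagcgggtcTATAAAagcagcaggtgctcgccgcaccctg
Between TGACGTCA and the start lay 43 bases in Errfi1 and 53 in Areg, and between TATAAA and the start 22 and 25 bases. Of 32851 such windows of all genes, 1.55% held TGACGTCA, 12.4% held TATAAA, 6.75% held the AP-1 element and 1.47% the CArG box, and 39 windows (0.119%) held both TGACGTCA and TATAAA. The SOX core was found in 5 of the 7 windows and in 36.3% of all, and the TEAD element in 2 of the 7 and in 12.6% of all, with no overlap between motifs in the windows of Errfi1 and Areg. None of the 7 windows held the AP-1 element or the CArG box. The motifs were chosen with the values known, and a match of letters is a description, not a binding site.

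Sox9Y440X/+ and wild-type epithelium-like cells were then compared by the difference of their means of log2(FPKM + 1), on which a pseudocount of 1 understates differences of low genes. A gene counted as higher or lower when it differed by at least 1 log2 unit. Of the 9 genes, 5 passed a filter on low values, an FPKM of 1 in 25% or more of either genotype's cells (Hbegf, Tgfa, Erbb2, Erbb3 and Errfi1). Of these, 3 were higher in Sox9Y440X/+ cells, Errfi1 by 2.63 (mean 4.38 ± 2.69 in Sox9Y440X/+ and 1.75 ± 2.66 in wild-type cells, SD over cells), Hbegf by 2.52 (3.65 ± 3.16 and 1.13 ± 2.27) and Erbb2 by 1.27 (2.61 ± 2.36 and 1.34 ± 2.08), and 0 were lower. Among all 5957 genes past the same filter, 13.5% were higher by at least 1 log2 unit and 2.20% were lower (15.7% in either direction), so a shift upward was common in Sox9Y440X/+ cells. Each of these 3 differences is smaller than the SD over cells of at least 1 genotype. By size, 6 genes differed more upward than Errfi1 and 9 more than Hbegf, which is how the genes were chosen. Hbegf passed the filter through Sox9Y440X/+ cells only (detected in 62.2%, against 21.4% of wild-type cells), which favoured its direction. The remaining differences were 0.66 for Egfr, 0.63 for Btc, 0.58 for Areg, 0.45 for Tgfa, 0.15 for Erbb3 and 0.12 for Ereg. The median of all 9 was 0.63, beside 0.36 over all genes past the filter, and 72.8% of those genes were above 0, as all 9 were. On the log2 ratio of mean FPKM Erbb3 turned to -0.65 and the median of all genes was 0.08.

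**Figure D2:**
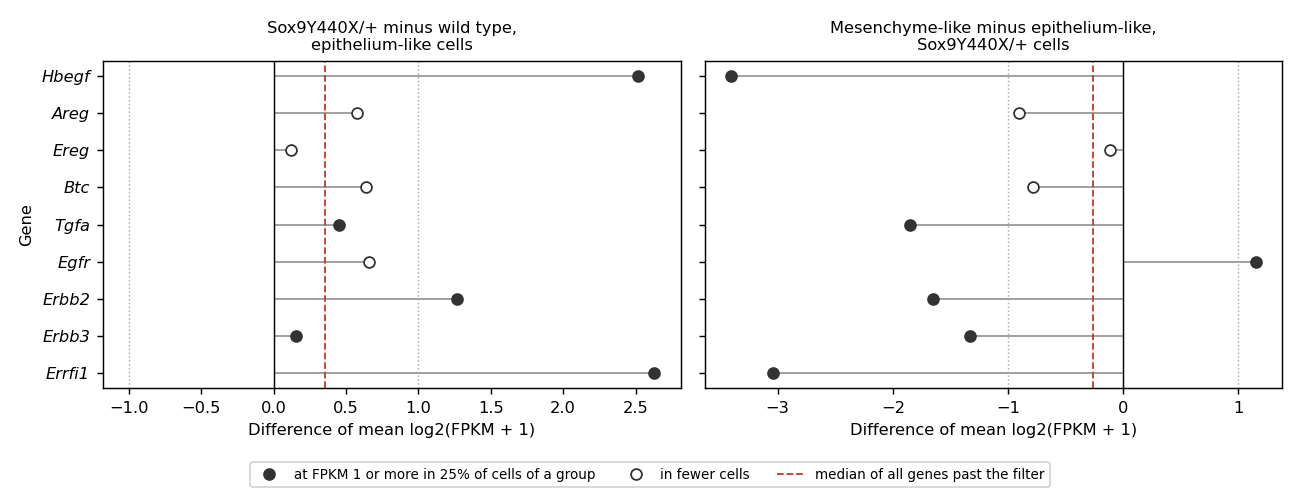
The difference of mean log2(FPKM + 1) (horizontal axes) for the 9 genes (vertical axis), as Sox9Y440X/+ minus wild type in epithelium-like cells (left) and as mesenchyme-like minus epithelium-like in Sox9Y440X/+ cells (right). Filled points are genes past the filter on low values, the dashed line is the median of all genes past that filter (0.36 and -0.27), and dotted lines mark 1 log2 unit. Errfi1 (2.63) and Hbegf (2.52) lie far from the line on the left, and Egfr (1.15) is the only gene right of 0 in the right panel.

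The genotypes filled the epithelium-like clusters unevenly, so the members were also compared within the clusters with at least 5 cells of each genotype. There the all-gene shift was not seen, with medians of all genes of -0.17 in cluster 1, -0.08 in cluster 3 and 0.06 in cluster 6. Of all genes past the filter, 21.4% were higher by at least 1 log2 unit and 24.7% lower in cluster 1. These shares were 12.3% and 17.6% in cluster 3, and 22.2% and 22.2% in cluster 6. Hbegf, chosen for its difference in these same cells, was higher in Sox9Y440X/+ cells of all 3 clusters. It differed by 1.29 in the ionocyte-like cluster 1 (5 Sox9Y440X/+ and 8 wild-type cells), by 2.75 in cluster 3 (11 and 11 cells) and by 2.29 in cluster 6 (6 and 22 cells). Its SDs over cells, Sox9Y440X/+ then wild type, were 2.12 and 3.06, 3.37 and 2.38, and 3.16 and 2.43. Errfi1 was higher by 0.97, 1.71 and 0.46 in the same clusters, each time less than its 2.63 over all epithelium-like cells. Of these clusters, Erbb2 kept its direction in cluster 1 only, at 1.37, against -0.43 in cluster 3 and -0.037 in cluster 6. Clusters 2, 7 and 8 had fewer than 5 cells of a genotype, and Errfi1 and Erbb2 were widely detected in the Sox9Y440X/+ cells of clusters 2 and 7. In cluster 2 (10 Sox9Y440X/+ cells and 1 wild-type cell) Errfi1 was detected in all 10 Sox9Y440X/+ cells, with a mean of 103.2 FPKM, and in the wild-type cell at 67.6 FPKM. In cluster 7 (5 and 4 cells) Errfi1 was detected in 5 of 5 Sox9Y440X/+ and 0 of 4 wild-type cells, and Erbb2 in 5 of 5 and 1 of 4. In cluster 8, which held 10 wild-type cells with a median of 2057.5 genes, Hbegf was detected in 0 cells and Errfi1 in 2.

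Against the 22 wild-type epithelium-like cells with Xist under an FPKM of 1, the differences were 1.75 for Hbegf, 2.08 for Errfi1 and 0.71 for Erbb2. In cells with 2500 to 5500 genes (27 Sox9Y440X/+ and 37 wild-type) they were 2.01 for Hbegf, 2.88 for Errfi1 and 0.80 for Erbb2. Hbegf and Errfi1, chosen for their differences in these same cells, were past 1 log2 unit in both subsets and Erbb2 was not. With the limit on Xist, 12.6% of all genes past the filter were higher by at least 1 log2 unit and 6.95% lower. With the limits on the number of genes, 12.4% were higher and 6.08% lower.

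The other ligands also varied between clusters. Tgfa in the ionocyte-like cluster 1 was detected in 4 of 5 Sox9Y440X/+ cells with a mean of 132.0 FPKM and in 2 of 8 wild-type cells with a mean of 7.21 FPKM, a log2 difference of 4.02. Areg was found in 2 of these 5 and 2 of these 8 cells, and the only Ereg-positive cell was among the 5. Egfr was listed at 0 in all 5 Sox9Y440X/+ cells of this cluster and detected in 2 of the 8 wild-type cells. In cluster 3, Egfr was detected in 5 of 11 Sox9Y440X/+ and 2 of 11 wild-type cells, so that this cluster held 5 of the 8 Sox9Y440X/+ epithelium-like cells with Egfr. The grid of clusters and genotypes sets these shares side by side.

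**Figure D3:**
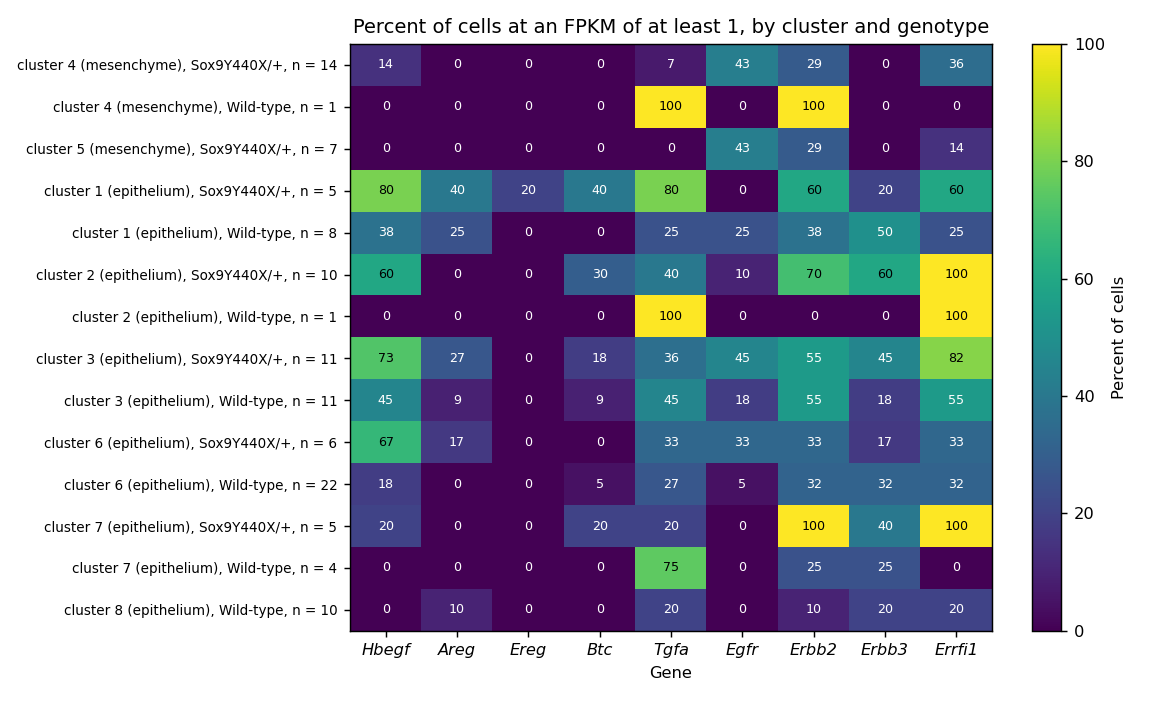
The percent of cells at an FPKM of at least 1 (colour and printed number) for each of the 9 genes (horizontal axis) in each cluster and genotype (vertical axis, with the number of cells n). Errfi1 reaches 100% of the Sox9Y440X/+ cells of clusters 2 and 7, and Erbb3 is at 0% in all rows of mesenchyme-like cells. Hbegf, chosen with its difference known, exceeds its wild-type share in clusters 1, 3 and 6, which have at least 5 cells of each genotype. Clusters 2 and 7 hold only 1 and 4 wild-type cells, too few to compare.

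Ligand and receptor genes were also counted within single cells. At least 1 of the 5 ligands was detected in 31 of 37 Sox9Y440X/+ cells (83.8%, interval 68.0 to 93.8) and in 27 of 56 wild-type cells (48.2%, interval 34.7 to 61.97). At least 2 ligands were detected in 15 of 37 and in 9 of 56 cells. A ligand together with at least 1 of the 3 receptors was detected in 25 of 37 Sox9Y440X/+ cells (67.6%, interval 50.2 to 82.0) and in 16 of 56 wild-type cells (28.6%, interval 17.3 to 42.2). Every Sox9Y440X/+ epithelium-like cell had at least 1 of the 9 genes, while 10 wild-type cells had 0. These counts and the makeup of the ligand signal include Hbegf, which was chosen with its difference known, so they partly restate that difference. Hbegf contributed 56.5% of the summed ligand FPKM in Sox9Y440X/+ and 35.98% in wild-type cells, and Tgfa 26.2% and 55.02%. Without the wild-type cell highest for Tgfa, the wild-type shares were 46.1% for Hbegf and 44.3% for Tgfa. Whether ligand and receptor were found together more often than their separate shares would give was not tested. The number of genes seen per cell was also higher in the Sox9Y440X/+ group (median 4506 against 3241.5), and its part in these shares was not tested.

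**Figure D4:**
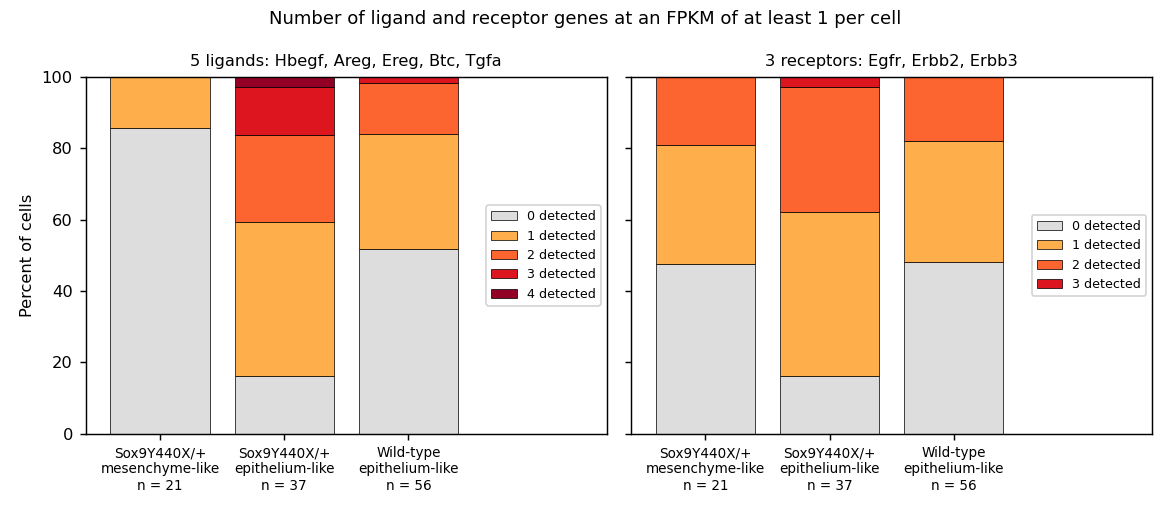
The percent of cells (vertical axes) with 0 to 5 of the ligand genes (left) and 0 to 3 of the receptor genes (right) at an FPKM of at least 1, in Sox9Y440X/+ mesenchyme-like, Sox9Y440X/+ epithelium-like and wild-type epithelium-like cells (horizontal axes). No ligand was detected in 18 of 21 mesenchyme-like cells, against 6 of 37 Sox9Y440X/+ and 29 of 56 wild-type epithelium-like cells.

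In connective tissue cells Egfr was detected in a larger share of cells than in epithelium, and ligands in few. In the 21 Sox9Y440X/+ mesenchyme-like cells Egfr ranged from 0 to 176.4 FPKM with a median of 0 and a mean of 26.6, and was detected in 9 cells (42.9%, interval 21.8 to 66.0), against a mean of 6.93 FPKM and 8 of 37 cells in Sox9Y440X/+ epithelium-like cells. Where detected, its median was 42.6 FPKM in mesenchyme-like and 24.2 FPKM in epithelium-like cells. Egfr was seen in both mesenchyme-like clusters, in 6 of 14 Sox9Y440X/+ cells of cluster 4 and 3 of 7 of cluster 5. All 5 ligands were listed at 0 in the 9 mesenchyme-like cells that had Egfr. Areg, Ereg and Btc were listed at 0 in all 21 mesenchyme-like cells, and so was Erbb3. Tgfa was found in 1 mesenchyme-like cell at 10.52 FPKM and Hbegf in 2, at 2.36 and 8.84 FPKM. A ligand and a receptor were detected together in 1 of 21 mesenchyme-like cells, and a receptor without a ligand in 10.

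By the same measure in Sox9Y440X/+ cells, 6 of the 9 genes passed the filter, and mesenchyme-like cells were higher for 1 of them and lower for 5. Egfr passed only through mesenchyme-like cells, and Hbegf, Tgfa and Erbb3 only through epithelium-like cells, which favoured the direction counted for each. Among all 6620 genes past the filter, 12.9% were higher by at least 1 log2 unit in mesenchyme-like cells and 24.9% were lower (37.7% in either direction). The classes were made from these same cells, and a difference between classes is here a description. Egfr was higher by 1.15 (2.12 ± 2.83 in mesenchyme-like and 0.96 ± 1.97 in epithelium-like cells). Hbegf differed by -3.41, Errfi1 by -3.04, Tgfa by -1.85, Erbb2 by -1.65 and Erbb3 by -1.33, and the 3 genes under the filter by -0.90 for Areg, -0.78 for Btc and -0.12 for Ereg. The median of the 9 was -1.33, beside -0.27 over all genes past the filter. Errfi1 was still present in the connective tissue class, in 6 of 21 mesenchyme-like cells (28.6%, interval 11.3 to 52.2) at up to 62.8 FPKM, a share near the 32.1% of wild-type epithelium-like cells. Of these 6 cells, 4 also had Egfr. The only wild-type mesenchyme-like cell had Tgfa at 121.4 FPKM and Erbb2 at 43.3 FPKM and the other 7 genes at 0, so the genotypes cannot be compared in connective tissue.

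Hbegf, a ligand, and Errfi1, an inhibitor made in response to EGFR activity, were both higher in Sox9Y440X/+ epithelium, and the same cells were used to ask whether they vary together from cell to cell. No such relation was seen within either genotype. In Sox9Y440X/+ epithelium-like cells both were detected in 18 cells, Hbegf alone in 5, Errfi1 alone in 11 and neither in 3. Errfi1 was found in 78.3% of the cells with Hbegf (interval 56.3 to 92.5) and in 78.6% of the cells without it (interval 49.2 to 95.3). In wild-type cells the counts were 5 with both, 7 with Hbegf alone, 13 with Errfi1 alone and 31 with neither, and Errfi1 was found in 41.7% of cells with Hbegf (interval 15.2 to 72.3) and in 29.5% of cells without it (interval 16.8 to 45.2). The Pearson correlation of log2(FPKM + 1) was -0.16 over the 37 Sox9Y440X/+ cells (Spearman -0.15), 0.04 over the 56 wild-type cells (Spearman 0.14) and 0.14 over all 93 (Spearman 0.20). In the 18 Sox9Y440X/+ cells with both genes it was -0.02. The pooled value is the only one of these Pearson values above 0.1, and it joins groups whose means of both genes differ. The correlations are descriptions of cells that share library chemistry and differ in depth.

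**Figure D5:**
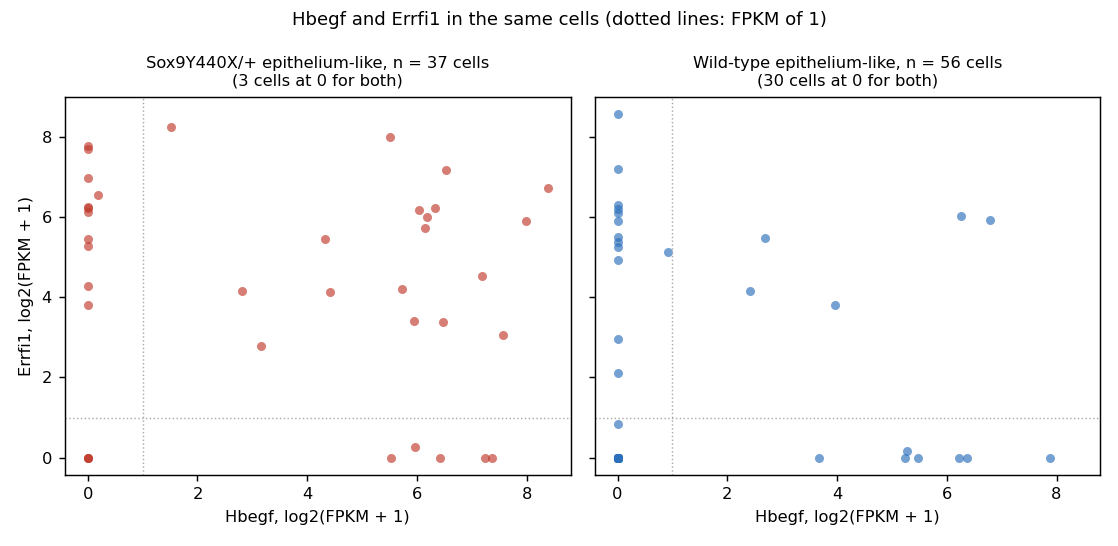
Errfi1 (vertical axes) against Hbegf (horizontal axes) as log2(FPKM + 1) in each of 37 Sox9Y440X/+ (left) and 56 wild-type (right) epithelium-like cells, with dotted lines at an FPKM of 1. The 18 Sox9Y440X/+ cells with both genes spread over the left panel without a slope (r of -0.02). For the 5 wild-type cells with both genes no r was computed. Errfi1 without Hbegf is seen in 11 Sox9Y440X/+ and 13 wild-type cells.

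The 2 genes also differed in what else they varied with. Hbegf correlated with the number of genes per cell (r of 0.32 in 37 Sox9Y440X/+ and 0.37 in 56 wild-type epithelium-like cells), and for Errfi1 r was -0.01 and 0.13. With the mean of 24 immediate-early genes, which cell dissociation is known to induce, r was 0.42 in Sox9Y440X/+ and 0.19 in wild-type cells for Hbegf and 0.07 in each for Errfi1. That mean was 3.61 ± 0.88 in Sox9Y440X/+ and 3.26 ± 1.06 in wild-type epithelium-like cells (log2(FPKM + 1), SD over cells) and 2.38 ± 0.80 in Sox9Y440X/+ mesenchyme-like cells. The means of Hbegf and of Errfi1 (4.38, 1.75 and 1.34 for Errfi1) stood in the same order. What part the immediate-early response had in the values of either gene was not tested. Errfi1 went against Tgfa in Sox9Y440X/+ cells (r of -0.41) but not in wild-type cells (-0.03), and its r with Erbb3 was 0.34 in Sox9Y440X/+ and -0.18 in wild-type cells. Erbb3 is known to be expressed with Sox10, a transcription factor gene related to Sox9, in neural crest cells. In Sox9Y440X/+ epithelium-like cells r between them was 0.15, and Erbb3 was detected in 2 of 2 cells with Sox10 and in 13 of 35 without it. Over the 56 wild-type epithelium-like cells r was -0.24, and 6 cells had both, 20 Sox10 alone, 10 Erbb3 alone and 20 neither.

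The genes most like Hbegf were found among the 3587 genes seen in 25% or more of both genotypes' epithelium-like cells, by the mean of the Pearson r within the 37 Sox9Y440X/+ and within the 56 wild-type cells. They were Fam103a1 (0.49), Sertad1 (0.44), Pafah1b1 (0.44), Pih1d1 (0.40), Polr2a (0.40), Tmem175 (0.40), Nudt19 (0.38) and Chmp7 (0.38). Errfi1 was number 3255 in that order, with a mean r of -0.06. For Errfi1 they were Trappc4 (0.37), Igsf9 (0.34), Mrps16 (0.34), Fos (0.34), Gapvd1 (0.33), Vill (0.32), Dctn4 (0.32) and St7l (0.32). Of the EGF family genes described here, only Tgfa, Erbb2, Erbb3 and Errfi1 passed that limit on detection. Hbegf, Areg, Ereg, Btc and Egfr could therefore not be listed. None of the members that could be listed was among the 8 genes nearest to Hbegf or to Errfi1. Among those nearest genes, Fos, an AP-1 subunit and immediate-early gene, is the only one on the immediate-early list.

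Other genes of the pathway were compared between the genotypes by the same measure. Of 6 further EGF family ligand genes, 0 passed the filter in epithelium-like cells. Egf was detected in 1 of 37 Sox9Y440X/+ and 4 of 56 wild-type cells, the neuregulin gene Nrg1 in 2 of 37 and 0 of 56, and Epgn and Nrg2 were listed at 0 throughout. The receptor gene Erbb4 was detected in 0 of 37 and 1 of 56 cells. Of 9 genes for ligand processing and shedding, 5 passed the filter and 0 differed by 1 log2 unit. Those with the highest levels were Adam10 (a difference of 0.22), Adam15 (0.02) and Rhbdf1 (0.21), and the ligand sheddase Adam17 was at 0.58. Of 18 adaptor and ERK cascade genes, 13 passed and 1 was higher in Sox9Y440X/+ cells, the RAF kinase gene Araf (1.23), beside 0.69 for Gab1, an adaptor gene. Of 16 other negative regulators, 3 passed and 1 was higher, the ERK phosphatase gene Dusp5 (1.04), beside 0.51 for Cblb, a ubiquitin ligase gene, and -0.12 for Spry2, a feedback inhibitor of RAS-ERK signalling. Of the 24 immediate-early genes, 18 passed, 2 were higher (the phosphatase gene Dusp1 by 2.78 and Ier3 by 1.46) and 1 was lower (Socs3, a cytokine feedback inhibitor gene, at -1.24). These counts stand beside the 13.5% higher and 2.20% lower of all genes.

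Between the classes, 12.9% of all genes past the filter were higher and 24.9% lower (37.7% in either direction, against 15.7% between the genotypes), and the pathway lists stand beside those shares. In Sox9Y440X/+ mesenchyme-like against epithelium-like cells, the sheddase genes Adam10 (-1.21), Adam15 (-1.43) and Adam17 (-1.08) were lower and Adam19 was higher (1.12, in 6 of 21 mesenchyme-like and 0 of 37 epithelium-like cells), among 6 that passed the filter. Among the 13 adaptor and ERK cascade genes that passed, Shc1 (2.0), an adaptor of activated receptors, and Map2k2 (1.01) were higher, and Map2k1 (-1.62) was lower. The negative regulators split as well. Dusp6, an ERK phosphatase gene, was higher (2.68), at a mean of 28.5 FPKM and 11 of 21 cells in mesenchyme-like and 0.411 FPKM and 1 of 37 cells in epithelium-like cells, and Spry1 was higher by 1.05. Dusp5, another ERK phosphatase gene, was lower (-1.89), at 0.195 FPKM and 1 of 21 cells in mesenchyme-like and 17.4 FPKM and 15 of 37 cells in epithelium-like cells, and so was Cblb (-1.11). Of 19 immediate-early genes that passed, 1 was higher (Socs3, 1.93) and 10 were lower, led by Nr4a1 (-5.81), Btg2 (-5.54) and Atf3 (-5.49).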

How the data were processed

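Expression was measured by Smart-seq2 in 62 Sox9Y440X/+ and 58 wild-type cells. The authors deposited FPKM values. The mouse build mm10 and the programs HISAT2, SAMtools (0.1.18), Cufflinks and HTSeq are named, per the submitters' processing notes. Nothing on their settings, the annotation or strand is given in the sources used here.

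Entries of the same symbol were summed (161 symbols). Ward linkage on 15 principal components of log2(FPKM + 1) of 1500 variable genes gave 8 clusters. These were named by the leading marker list, with at least 3 markers in at least 50% of their cells, and cluster 1 was called ionocyte-like from at least 8 ionocyte markers. Doublets were not sought with a caller, and 0 cells had at least 5 epithelium and 5 mesenchyme markers. No 2 cells correlated above 0.592. Python 3.11.15, pandas 2.3.3, NumPy 2.4.6, SciPy 1.17.1 and matplotlib 3.10.9 were used. Of the calculations, only the difference of mean log2 values was checked on simulated data, by recovering shifts that had been added. The clusters, classes, shares and correlations were not checked in this way.

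The 9 genes, the lists and the markers were chosen with earlier results of these data known. From each pathway list the 3 genes with the largest difference past the filter were named, or the 3 highest where none reached 1 log2 unit (some genes of the adaptor and ERK cascade list are not reported here), and from the genes most like Hbegf and Errfi1 the first 8, passing over predicted, mitochondrial, RIKEN, pseudogene and ribosomal protein symbols. Other pathway genes, single clusters, motifs and the mesenchyme-like cells that stood apart were chosen after their values were seen. The alternatives tried were other pseudocounts, scalings, cell filters, clusterings, detection limits and subsets of cells.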

Additional observations from a re-analysis of the deposited data

How the results depend on the processing

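The median difference of the 9 genes between genotypes (0.63) was 1.06 with a pseudocount of 0.1, 0.29 with 10, 1.82 as the log2 ratio of mean FPKM, 1.20 within cluster 1 and 0.00 within cluster 6. Within cluster 1, where each group has few cells, 5 genes were higher and 2 lower, against 3 and 0, beside 21.4% higher and 24.7% lower of all genes there, against 13.5% and 2.20%. Erbb2 reversed to -0.43 within cluster 3 and -0.037 within cluster 6, and the cause was not tested. Between the classes the median (-1.33) was -2.62 with a pseudocount of 0.1, -0.43 with 10 and -2.70 as the log2 ratio, and a pseudocount of 10, which shrinks all differences, left 0 genes higher and 2 lower, against 1 and 5, beside 3.58% higher and 7.66% lower of all genes. The correlation of Hbegf and Errfi1 (0.14) was -0.16 in Sox9Y440X/+ cells alone. Besides these 13 summary values that moved, 123 stayed within the limits set for them. The limits were 1.5 times for counts, 1.5 times or 0.1 for median differences, the counting interval for shares and a fixed distance for the correlation. The correlation of 0.04 in wild-type cells alone lay within that distance. The other clusterings kept every cell in its class, so the values under them could not move. Of all genes that differed by 1 log2 unit, 86.0% were higher in Sox9Y440X/+ cells, against 58.6% as the log2 ratio and 76.7% with a pseudocount of 10, and 46.5%, 41.1% and 50.05% within clusters 1, 3 and 6. The class of all 115 cells was the same under the other clusterings, and of 114 by marker counts. Unknown read depth leaves genes listed at 0 undecided. No paired analysis was possible because a number in a label only names its cell and no test was made.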
